A study of Mus musculus with 2 samples.

Results

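The genes described here are 10 of the 20476 in a table of single testicular cells: the PIWI genes Piwil1 and Piwil2, and 8 genes whose proteins carry tudor domains, Tdrd1, Tdrd5, Tdrd6, Tdrd7, Tdrd9, Tdrd12, Tdrkh and Rnf17. They were chosen by symbol, and all 10 were in the table, with between 8692 (Tdrkh) and 51989 (Tdrd6) unique molecular identifiers (UMIs) each. The study dissociated whole testes of adult mice, wild type (WT) or miR-202-/- (without the microRNA miR-202), of the strain given as C57BL/CJ;ICR, and sequenced the 3′ ends of polyadenylated RNA of total testicular cells in droplets. Each genotype had 1 library, and the stated aim was to examine changes in the make-up of the testis and in its genes' expression. The sources used here do not say how many mice went into a library. The barcode names end in a mark, 1 or 2, read here as the library, but nothing ties a mark to a genotype, so WT and miR-202-/- were not compared. Levels and ratios are given as a pair, mark 1 first, and single values (shares of barcodes, depths, X-linked shares and means per barcode) are over both marks together. The marks cannot stand in for replicates, and no test was run.

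PIWI proteins bind piRNAs, small germline RNAs that guide them to transposon transcripts and to other RNAs. Tudor domains recognise methylated arginines in the tails of PIWI proteins, and tudor proteins hold the piRNA machinery together in granules, first between the mitochondria of spermatogonia and spermatocytes and later in the chromatoid body of round spermatids. In the adult mouse testis most piRNAs are made in pachytene spermatocytes, where the transcription factor A-MYB (the product of Mybl1) switches on both piRNA loci and genes of the pathway.

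Promoter sequences of 4 members are shown because these genes differed in when they were highest: Piwil1, Tdrd12 and Tdrd1 in pachytene cells, and Tdrd7 later. They come from RefSeq (GRCm38.p6), which matched 7 of the 10 members, and a gene can have several listed starts. The start shown for Piwil1 lies inside the annotated gene, downstream of its first exons. Of the 250 bases before a start, only those outside the gene's own exons are printed, 5′ to 3′ on the gene's strand. Capitals mark core words of MYB sites, searched on either strand: the first word was CAACGG, the next was CAACTG, another was TAACGG and the last was TAACTG.
Piwil1, chr5:128735996-128736173, plus strand: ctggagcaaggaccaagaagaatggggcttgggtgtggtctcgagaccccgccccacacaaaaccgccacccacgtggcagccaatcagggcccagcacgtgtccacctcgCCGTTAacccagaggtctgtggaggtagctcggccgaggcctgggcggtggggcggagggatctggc
Tdrd12, chr7:35537746-35537994, minus strand: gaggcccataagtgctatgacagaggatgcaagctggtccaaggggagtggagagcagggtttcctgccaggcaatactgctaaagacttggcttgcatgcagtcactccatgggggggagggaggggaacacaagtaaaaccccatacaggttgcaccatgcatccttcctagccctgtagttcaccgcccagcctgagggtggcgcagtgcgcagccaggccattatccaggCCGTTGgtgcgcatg
Tdrd1, chr19:56825959-56826208, plus strand: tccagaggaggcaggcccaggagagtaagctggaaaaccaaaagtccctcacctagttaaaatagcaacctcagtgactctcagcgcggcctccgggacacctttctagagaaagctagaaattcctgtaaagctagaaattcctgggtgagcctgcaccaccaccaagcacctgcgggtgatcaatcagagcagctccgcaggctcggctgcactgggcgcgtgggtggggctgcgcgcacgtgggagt
Tdrd7, chr4:45965085-45965333, plus strand: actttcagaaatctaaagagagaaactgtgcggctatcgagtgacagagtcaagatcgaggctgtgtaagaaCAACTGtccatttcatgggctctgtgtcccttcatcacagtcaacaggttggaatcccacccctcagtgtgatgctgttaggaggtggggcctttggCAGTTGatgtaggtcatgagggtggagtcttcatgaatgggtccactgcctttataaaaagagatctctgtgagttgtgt
A word was present in the 250 bases before at least 1 start of 5 of the 7 members (71.43%): Piwil1, Tdrd5, Tdrd7, Tdrd12 and Tdrkh. Over all 27025 genes in the promoter table the share was 26.28%. The word of Piwil1 printed above began 139 bases before the start and that of Tdrd12 began 16 bases before it. Tdrd1 and Tdrd9 held none in these windows. A match is a description of letters and not a binding site, and genes with several listed starts had more windows in which to match.

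Barcodes were assigned to germ cell stages by gates on fixed marker genes, none of them a member or another piRNA factor. The gates took 31 barcodes as undifferentiated spermatogonia, 278 as differentiating spermatogonia, 184 as Stra8 cells entering meiosis, 117 as leptotene to zygotene, 492 as pachytene, 239 as later pachytene, 457 as diplotene or dividing, 2320 as early round spermatids, 105 as later round spermatids and 3776 as elongating spermatids. Each name but later pachytene stands for cells that resemble the stage by its own markers, and 66.8% of the 28245 barcodes were left in no gate. Later pachytene had no markers of its own. It took barcodes with 3 to under 10 UMIs of the pachytene panel (Psma8, Tex101 and Sycp3) per 10000, where pachytene required 10 or more. They also had to be low in early round markers and not already taken as diplotene or dividing. The leptotene to zygotene gate also required 10 or more UMIs of the pachytene panel per 10000, together with at least 2 genes of its own panel. It had no minimum depth, and leptotene cells low in the pachytene panel were left out. That panel stood at 3803 CPM in leptotene to zygotene, 2318 in pachytene and 665 in later pachytene. Its level therefore does not separate the first 2 of these gates, and the high value in leptotene to zygotene is in part set by the gate. X-linked genes, which the gates did not use, are silenced in pachytene. They took 1.75% of UMIs in Stra8 cells, 0.937% in leptotene to zygotene, 0.170% in pachytene and 0.1345% in later pachytene. Their share was 0.222% in diplotene or dividing cells and 1.14% in early round spermatids. These shares set the gates of low X-linked RNA apart from the others. They cannot order pachytene, later pachytene and diplotene or dividing cells among themselves. Median UMIs per barcode were 8197 in leptotene to zygotene, 33000 in pachytene and 26040 in early round spermatids, and gates from pachytene on required at least 10000, so shares of stages among barcodes are set in part by that minimum. The same 73 barcode sequences occurred under both marks, and no count of members called moved by more than 1.5-fold without them.

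Germline RNA was also counted in barcodes gated as somatic, 1114 of them Sertoli cells, which nurse germ cells and are not known for these genes. Across the 5 somatic gates (Sertoli, Leydig, macrophage, T or NK, stromal) and both marks, Piwil1 lay between 63.3 and 166 UMIs per 1000000 UMIs of the gate (CPM, counts per 1000000), Tdrd6 between 127 and 184 and Tdrd7 between 73.6 and 141. For Piwil1, Tdrd6 and Tdrd7 they exceeded or overlapped the levels in spermatogonia. Sertoli levels are given beside the germ cell levels for reference, but they are not the amount of free RNA in a germ cell gate: protamine and transition protein UMIs made up 7.86% of the Sertoli total, 1.79% of that of differentiating spermatogonia, 0.894% of that of pachytene and 0.969% of that of early round spermatids. CPM values are of UMIs at transcript ends, so the levels of different genes are not ranked against each other.

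Piwil1 (chromosome 5, 128702524 to 128755474, GRCm38) encodes MIWI, the PIWI protein that carries pachytene piRNAs. It was at 52.3 and 41.9 CPM in undifferentiated spermatogonia under marks 1 and 2, 63.1 and 68.9 in differentiating spermatogonia, and 70.3 and 55.5 in Stra8 cells. All 6 of these values lay below those in Sertoli cells, 125 and 92.7. It then stood at 381 and 395 CPM in leptotene to zygotene and reached 1331 (95% interval 1305 to 1357) and 1207 (1185 to 1230) in pachytene cells. Thereafter it was at 674 and 596 CPM in later pachytene, 169 and 116 in diplotene or dividing cells, and 26.1 and 25.7 in early round spermatids. The pachytene level was the highest under both marks, with later pachytene next at a level about 2-fold lower, and the intervals of these stages did not overlap.

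From stage to stage Piwil1 was 5.42-fold (4.16 to 7.12) and 7.13-fold (5.27 to 9.80) higher in leptotene to zygotene than in Stra8 cells, and a further 3.5-fold and 3.05-fold higher in pachytene. It was then 1.98-fold and 2.03-fold lower in later pachytene, 3.99-fold and 5.13-fold lower in diplotene or dividing cells, and 6.48-fold and 4.51-fold lower in early round spermatids. Intervals are conditional binomial and cover counting error only. Per barcode, Piwil1 had 48.25 and 40.7 UMIs in pachytene and 38.9 and 26.85 in later pachytene, so the difference was smaller on this scale. After every barcode was thinned to 3500 UMIs, 98.2% of pachytene barcodes (Clopper-Pearson 95% interval 96.6 to 99.2%) held a Piwil1 UMI. The share was 36.8% (28.0 to 46.2%) in leptotene to zygotene, 20.7% in Stra8 cells and 9.14% in early round spermatids, beside 31.2% (28.5 to 34.1%) in Sertoli cells. The shares in spermatogonia, Stra8 cells and round spermatids lay below that of Sertoli cells and the interval of leptotene to zygotene reached it, so Piwil1 UMIs in these gates cannot be assigned to the cells themselves from shares alone. Unthinned, the shares were 99.6% in pachytene, 58.1% in leptotene to zygotene, 46.2% in Stra8 cells and 39.3% in Sertoli cells, whose median depths differed. The mean was 4.16 Piwil1 UMIs per barcode in leptotene to zygotene and 0.685 in Stra8 cells. The higher summed level in leptotene to zygotene thus rested on part of its barcodes and is not a rise seen in every one. Whether barcodes of pachytene cells entered that gate was not tested.

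Piwil2 (chromosome 14, 70372477 to 70429383, GRCm38) encodes MILI, the PIWI protein present from spermatogonia to spermatids. It stood at 111 and 103 CPM in undifferentiated spermatogonia, 83.7 and 70.2 in differentiating spermatogonia, and 94.4 and 104 in Stra8 cells, all above the 17.6 and 14.0 of Sertoli cells. It was 193 (162 to 229) and 225 (188 to 267) in leptotene to zygotene, and 188 (179 to 198) and 183 (174 to 192) in pachytene. The ratio of pachytene to leptotene to zygotene was 0.975 (0.815 to 1.17) under mark 1 and 0.814 (0.680 to 0.981) under mark 2, so only under mark 2 was leptotene to zygotene higher beyond counting error. It fell 3.07-fold and 3.51-fold by the size rule to 61.4 and 52.2 CPM in later pachytene, then 2.13-fold and 2.19-fold to 28.8 and 23.9 in diplotene or dividing cells, and was at 7.88 and 7.17 CPM in early round spermatids. Thinned, Piwil2 was detected in 28.3% of Stra8 cells, 49.2% (44.7 to 53.7%) of pachytene, 20.9% of later pachytene and 3.02% of early round barcodes, beside 5.12% of Sertoli barcodes. In differentiating spermatogonia its share was 22.7% (17.9 to 28.0%), above that of Sertoli cells, where for Piwil1 it was below.

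**Figure D1:**
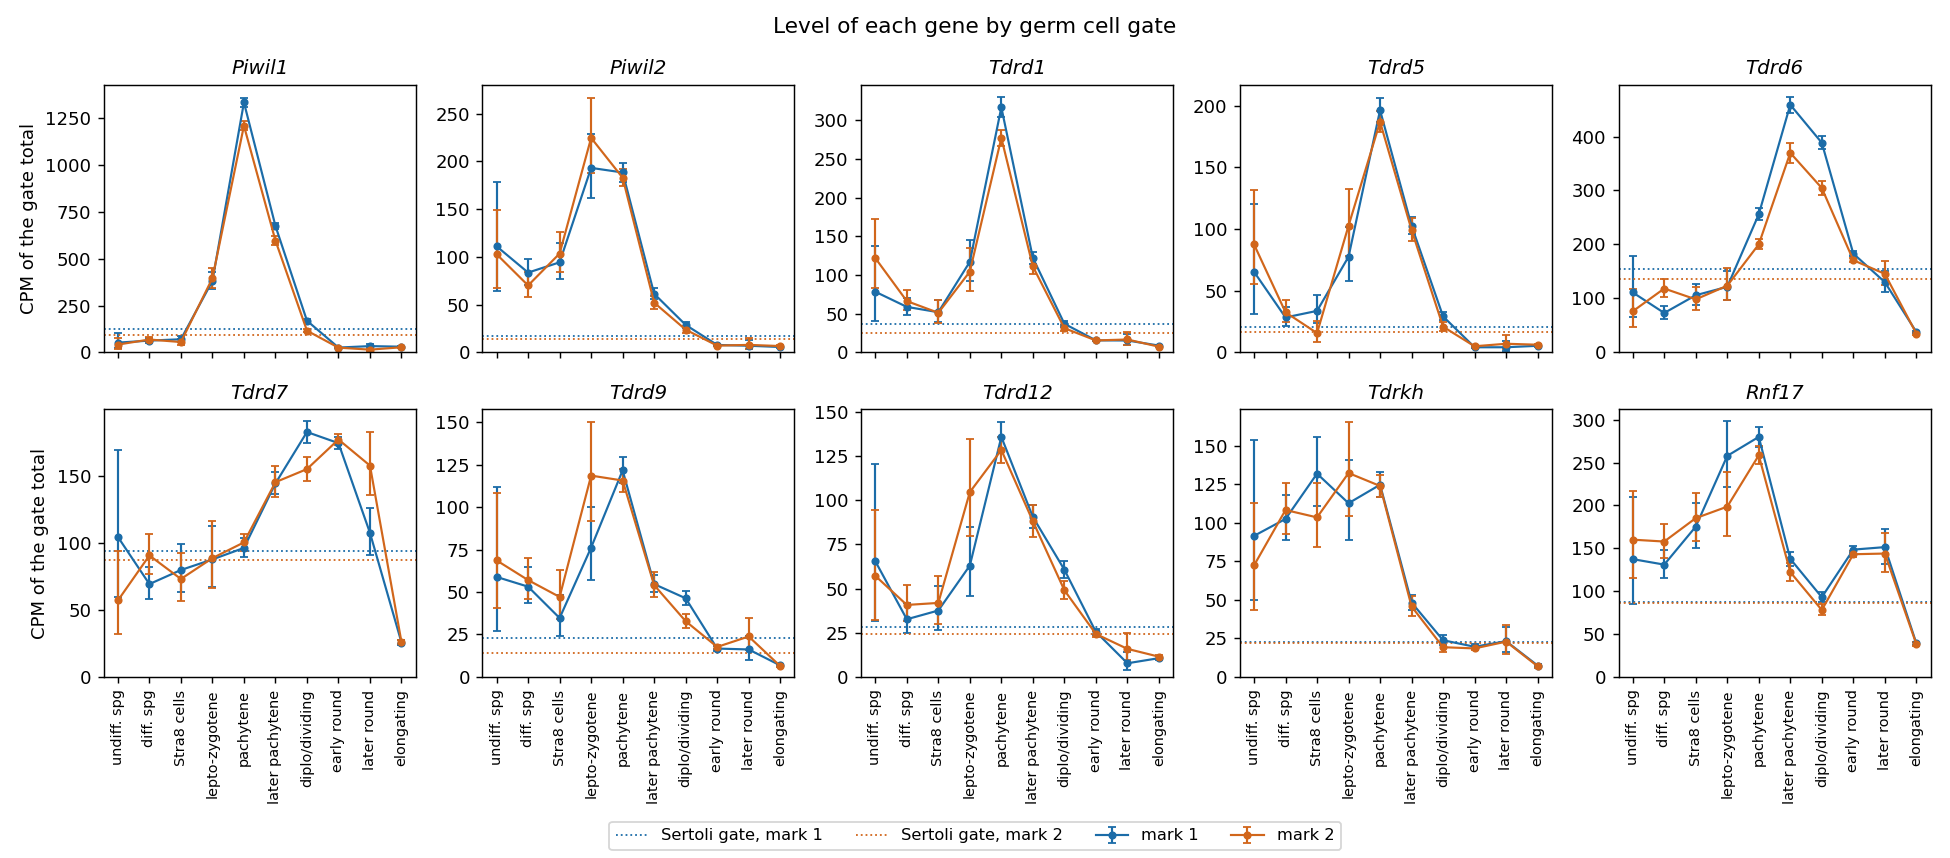
CPM (vertical axis, linear and separate for each gene) of the 10 genes in 10 germ cell gates (horizontal axis, in the textbook order of the stages) under marks 1 and 2, with exact Poisson 95% intervals; dotted lines give the level in the Sertoli gate. Piwil1, Tdrd1 and Tdrd5 are highest in pachytene under both marks, Tdrd6 is high in later pachytene and in diplotene or dividing cells, and Tdrd7 stays high into round spermatids.

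Tdrd1, whose protein binds MILI in the granules between mitochondria, was at 317 (304 to 330) and 277 (267 to 288) CPM in pachytene. Before that stage it lay between 51.3 and 122 CPM, with the 122 in undifferentiated spermatogonia under mark 2 resting on 32 UMIs. It fell 2.59-fold and 2.5-fold to 122 and 111 CPM in later pachytene and to 37.1 and 31.4 in diplotene or dividing cells. Tdrd5, a protein of the same granules and of the chromatoid body, was also highest in pachytene under both marks: 77.6 and 103 CPM in leptotene to zygotene, 196 and 187 in pachytene, 103 and 99.4 in later pachytene, and 29.2 and 20.9 in diplotene or dividing cells. In Stra8 cells it was at 33.7 and 15.7 CPM, close to the 20.6 and 16.3 of Sertoli cells.

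Tdrd9 and Tdrd12 encode proteins that join tudor domains to RNA helicase domains. Tdrd9 was at 34.7 and 47.1 CPM in Stra8 cells, 76.2 (56.9 to 99.9) and 118 (92.0 to 150) in leptotene to zygotene, and 122 (114 to 130) and 116 (109 to 123) in pachytene. The ratio of pachytene to leptotene to zygotene was 1.60 (1.21 to 2.15) under mark 1 and 0.976 (0.763 to 1.27) under mark 2. Tdrd12 was at 37.6 and 41.9 CPM in Stra8 cells, 63.0 and 104 in leptotene to zygotene, 136 (128 to 144) and 128 (121 to 136) in pachytene, and 90.4 and 88.0 in later pachytene. Tdrd12 missed the size rule between pachytene and later pachytene, its level being 1.5-fold and 1.46-fold lower.

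Tdrkh, a mitochondrial tudor protein with KH domains that is needed for the trimming of piRNA ends, was nearly level from Stra8 cells to pachytene. Stra8 cells had 132 (111 to 156) and 104 (84.2 to 126) CPM of Tdrkh, leptotene to zygotene 113 and 132, and pachytene 125 and 124. The ratios between consecutive stages here had intervals that included 1 under both marks, so no order can be given. It was then 2.58-fold and 2.71-fold lower in later pachytene, at 48.3 and 45.8 CPM. Tdrkh overlaps Oaz3, a gene of the opposite strand with 433190 UMIs in the table, and Tdrd5 overlaps 4930518J20Rik, also of the opposite strand, with 75161. Whether counting used strand is not stated in the sources at hand, so the levels of Tdrkh and Tdrd5 are uncertain to that extent.

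Rnf17, a RING finger protein with tudor domains that spermatids need to mature, had a second maximum. It was at 258 (221 to 299) and 199 (164 to 239) CPM in leptotene to zygotene and 280 (268 to 292) and 258 (248 to 269) in pachytene, and its level fell to 138 and 122 in later pachytene and to 93.0 and 78.1 in diplotene or dividing cells. In early round spermatids it was 1.60-fold (1.49 to 1.71) and 1.83-fold (1.68 to 2.0) higher again, at 149 and 143 CPM, and it was at 151 and 144 in later round spermatids. In UMIs per barcode this step was 1.31-fold and 1.41-fold, and Rnf17 did not pass the size rule on that scale or at 2-fold. In elongating spermatids it was 3.86-fold and 3.75-fold lower, at 39.2 and 38.4 CPM. The level in diplotene or dividing cells was close to that of Sertoli cells, 87.1 and 85.7 CPM. Thinned, 27.1% (23.1 to 31.5%) of diplotene or dividing barcodes and 41.8% (39.8 to 43.8%) of early round barcodes held an Rnf17 UMI, beside 26.5% of Sertoli barcodes.

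Tdrd6 and Tdrd7 encode proteins of the chromatoid body, and neither was highest in pachytene under either mark. Tdrd6 was at 256 and 200 CPM in pachytene, 459 (444 to 474) and 370 (352 to 388) in later pachytene, 388 (376 to 401) and 305 (292 to 317) in diplotene or dividing cells, and 183 and 171 in early round spermatids. It was 1.79-fold (1.70 to 1.89) and 1.85-fold (1.73 to 1.98) higher in later pachytene than in pachytene, the opposite direction to 7 other members. Up to leptotene to zygotene it lay between 73.1 and 124 CPM, below the 154 and 136 of Sertoli cells. Its thinned share was 47.4% in pachytene and 73.6% (67.6 to 79.1%) in later pachytene, beside 41.7% (38.8 to 44.7%) in Sertoli cells. Per barcode the later pachytene level was 26.5 and 16.7 UMIs against 9.28 and 6.76 in pachytene.

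Tdrd7 was at 96.5 and 101 CPM in pachytene, close to the 94.0 and 87.4 of Sertoli cells, and at 145 and 146 in later pachytene. It reached 183 (175 to 192) and 155 (147 to 164) in diplotene or dividing cells, 175 (170 to 179) and 178 (173 to 182) in early round spermatids, and 108 (91.4 to 126) and 158 (136 to 183) in later round spermatids. The ratio of early round to diplotene or dividing cells was 0.955 (0.906 to 1.01) under mark 1 and 1.14 (1.07 to 1.22) under mark 2, and no single highest stage can be named. By the size rule Tdrd7 differed between no consecutive stages before elongating spermatids (in later pachytene it was called higher than in pachytene with TMM factors, with free RNA subtracted, in UMIs per barcode and under mark 1 alone), where it was 4.18-fold and 6.07-fold lower. Its thinned share was 28.0% (24.1 to 32.2%) in pachytene and 46.7% (44.6 to 48.7%) in early round spermatids, beside 27.6% in Sertoli cells. With the estimated free RNA subtracted Tdrd7 was at 90.9 and 96.2 CPM of the remaining UMIs in pachytene.

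**Figure D2:**
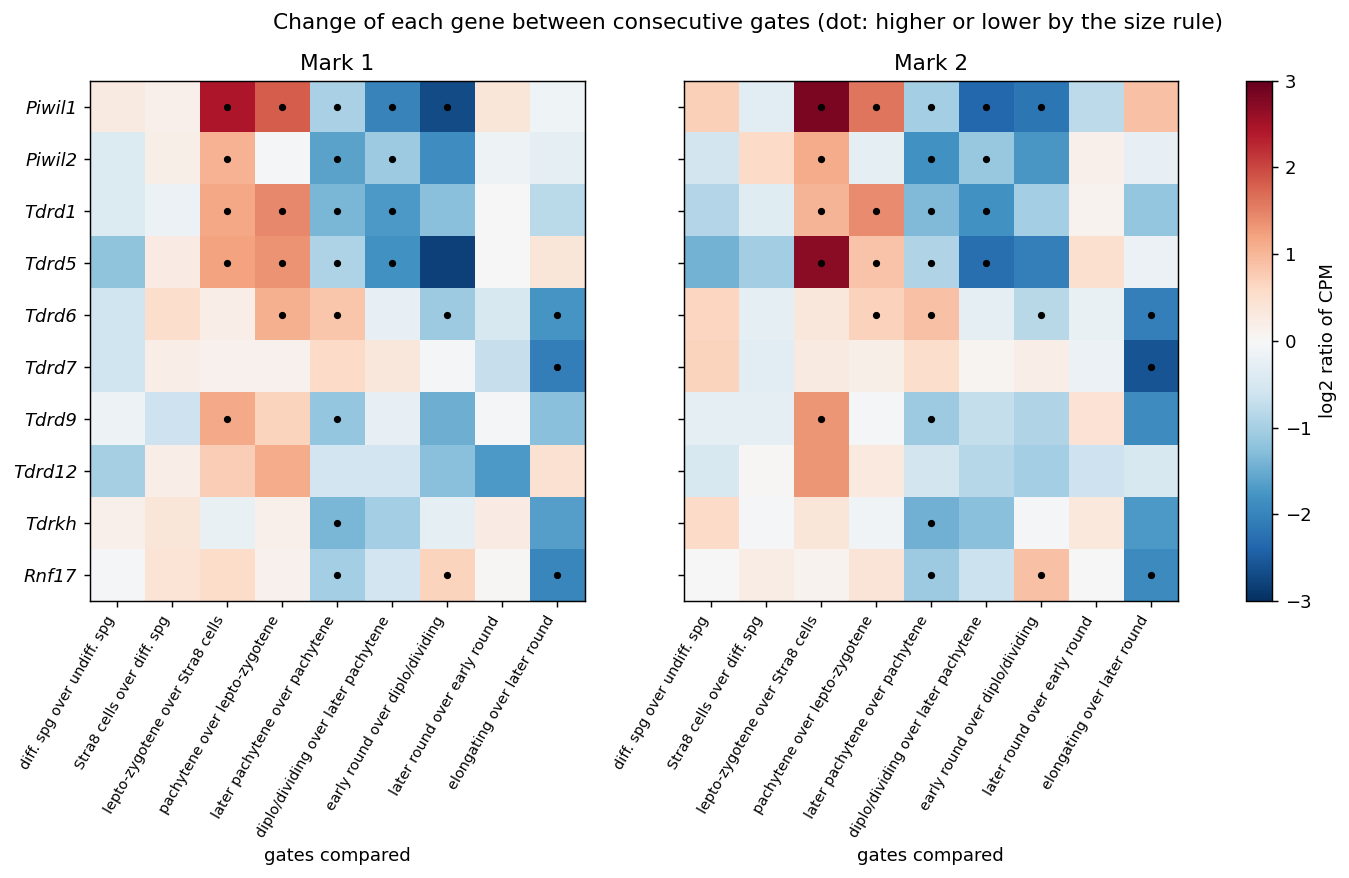
Log2 ratio of CPM (colour, red higher and blue lower in the later stage, colours saturating at the ends of the scale) for each gene (rows) between consecutive gates (columns), under mark 1 (left) and mark 2 (right). Dots mark the genes that differed by the size rule: 7 members carry a dot for later pachytene lower than pachytene, and Tdrd6 one for higher.

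By the size rule a gene was higher or lower if the ratio of its CPM reached 1.5-fold, and pointed the same way, under mark 1 and under mark 2, and if the higher stage had 50 or more CPM and 50 or more UMIs. From undifferentiated to differentiating spermatogonia 0 members were called, where 3.71% of measured genes were higher and 0.136% lower. From there to Stra8 cells 0 were called, against 1.37% higher and 0.526% lower. From Stra8 cells to leptotene to zygotene 5 members were higher (Piwil1, Piwil2, Tdrd1, Tdrd5 and Tdrd9) and 0 lower, against 4.28% and 6.02% of all measured genes. The median log2 ratio of the members was 0.89 and 1.07, and that of all genes 0.18 and 0.20. With the estimated free RNA subtracted 3 of the 5 were called, and 2 (Piwil1 and Piwil2) with gate thresholds 1.5 times higher, with UMIs per barcode in place of CPM, or without the deepest 5% of barcodes. After subtraction Tdrd5 and Tdrd9 were still more than 1.5-fold higher under both marks. In UMIs per barcode Tdrd1 was 2.23-fold and 2.02-fold higher, Tdrd5 2.28-fold and 6.48-fold, and Tdrd9 2.18-fold and 2.49-fold. On these scales the calls were thus lost at the minimum of the rule, not at the ratio. Ratios with higher thresholds or without the deepest barcodes are not given here.

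From leptotene to zygotene to pachytene 4 members were higher (Piwil1, Tdrd1, Tdrd5 and Tdrd6) and 0 lower, against 5.29% higher and 4.37% lower among all measured genes. With the odd-numbered genes of each marker panel alone 2 were called (Piwil1 and Tdrd6). In UMIs per barcode all 10 were higher at this step, where the median depth of barcodes went from 8197 to 33000. Between pachytene and later pachytene 7 members were lower (Piwil1, Piwil2, Tdrd1, Tdrd5, Tdrd9, Tdrkh and Rnf17) and Tdrd6 was higher, against 5.01% lower and 4.31% higher. These 2 gates were divided by the level of the pachytene panel, so genes that follow this panel tend to be lower in later pachytene by the gate rule. A change of stage cannot be told apart from that. The members' median log2 ratio was -1.0 and -1.05, and that of all genes -0.15 and -0.06. In UMIs per barcode 3 were lower (Piwil2, Tdrd1 and Tdrkh) and 2 higher (Tdrd6 and Tdrd7), and Piwil1, Tdrd5, Tdrd9 and Rnf17, lower in CPM, did not pass on that scale. Later pachytene was the deepest gate, with a median of 56420 UMIs per barcode.

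From later pachytene to diplotene or dividing cells Piwil1, Piwil2, Tdrd1 and Tdrd5 were lower and 0 members higher, against 2.98% lower and 2.62% higher. The count of lower members was 7 under mark 2 alone and with gate thresholds 1.5 times higher. It was 8 in UMIs per barcode, where the median depth of barcodes went from 56420 to 27740. From there to early round spermatids Piwil1 and Tdrd6 were lower and Rnf17 higher, against 7.61% and 7.23%. In diplotene or dividing cells Piwil2, Tdrd1, Tdrd5, Tdrd9, Tdrd12 and Tdrkh were already under the minimum of 50 CPM under at least 1 mark. Without that minimum 7 members were lower in early round spermatids, Tdrkh not among them. The share of all genes lower without the minimum was not computed, so the 7 have no background beside them. At this step the median log2 ratio of all genes was itself -0.49 and -0.44, and that of the members -1.25 and -0.95. Between early and later round spermatids 0 members were called, against 1.09% higher and 0.362% lower. In elongating spermatids Tdrd6, Tdrd7 and Rnf17 were lower than in later round spermatids, against 13.2% of all genes lower and 3.12% higher, and the members' median log2 ratio of -1.02 and -1.45 was near that of all genes, -1.18 and -1.41. With thresholds 1.5 times higher 0 members were called there, since 4 later round barcodes were left. Protamine and transition protein UMIs made up 21.7% of the elongating total, a total over which the CPM of every other gene is taken.

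**Figure D3:**
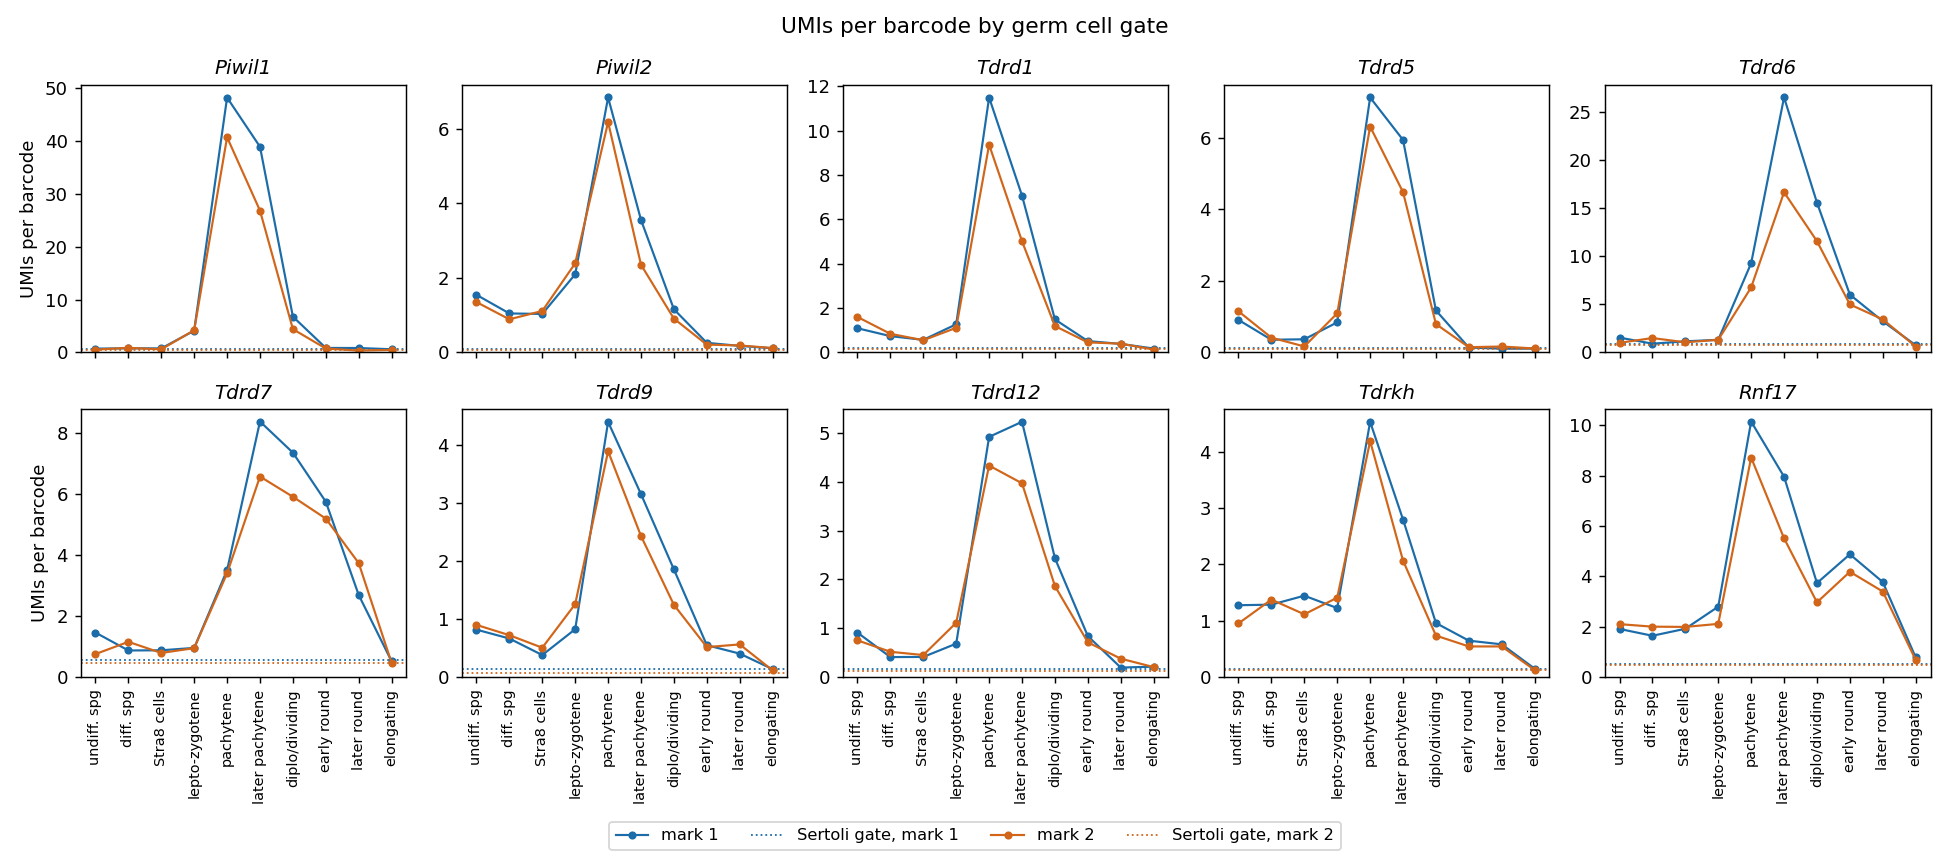
UMIs per barcode (vertical axis, linear and separate for each gene) in the 10 germ cell gates (horizontal axis) under marks 1 and 2, without division by the gate total; dotted lines give the Sertoli gate. On this scale 7 genes are highest in pachytene under both marks, Tdrd6 and Tdrd7 are highest in later pachytene, and Tdrd12 is highest in later pachytene under mark 1 and in pachytene under mark 2.

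The number of members detected per barcode was highest in pachytene. Whether members were detected together more often than their separate shares give was not tested. After thinning, the median pachytene barcode had UMIs of 5 of the 10 genes, against 4 in later pachytene and 2 in Sertoli cells. A pachytene barcode held a mean of 10.4 member UMIs. The mean was 2.67 in Stra8 cells, 4.41 in leptotene to zygotene, 6.04 in later pachytene, 3.08 in diplotene or dividing cells, 2.23 in early round spermatids and 0.644 in elongating spermatids, beside 2.08 in Sertoli cells. The share of barcodes without a UMI of any member was 0.203% in pachytene and 54.3% in elongating spermatids. Protamine and transition protein UMIs take up part of each thinned barcode in elongating spermatids.

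**Figure D4:**
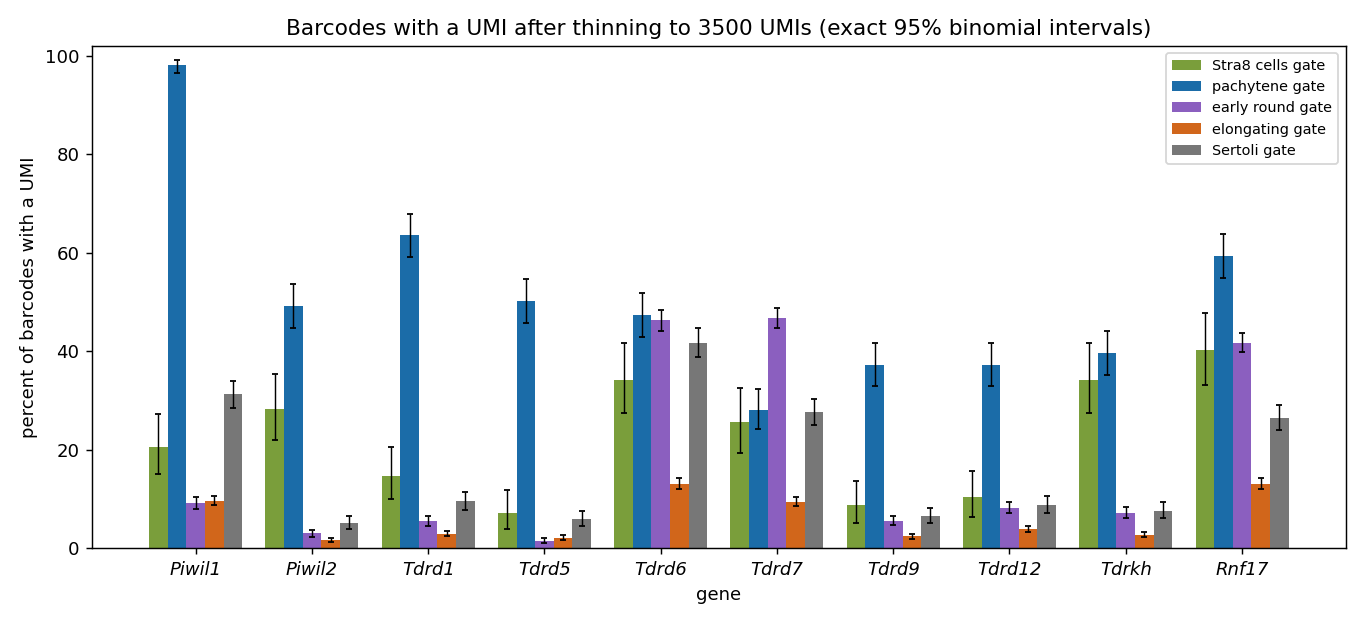
Percent of barcodes with at least 1 UMI of each gene (vertical axis, from 0) after thinning to 3500 UMIs, in the Stra8, pachytene, early round, elongating and Sertoli gates, both marks together, with exact binomial 95% intervals. For 8 genes the pachytene bar stands above the Sertoli bar, while for Tdrd6 and Tdrd7 the pachytene and Sertoli intervals overlap.

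The members' profiles over the 10 stages and 2 marks were compared by Pearson correlation of log2 CPM with 10 CPM added, over 20 points that share libraries and depth. Tdrd1 and Tdrd5 were most alike, at 0.971, followed by Tdrd1 with Tdrd9 at 0.943 and Piwil2 with Tdrkh at 0.941. Tdrd6 and Tdrd7 were at 0.856 with each other, while Piwil2 and Tdrd7 were at -0.048, the lowest of all pairs. Among 7269 other genes, those closest to the mean of the members' profiles were Arl6ip4 at 0.978, Wwc2 at 0.9725, Rab11fip2 at 0.970, Swi5 at 0.968 and Cnot1 at 0.968. Those closest to Piwil1 were the long noncoding RNAs Gm21269 at 0.989 and 4930444F02Rik at 0.984, and Lypd10 at 0.982.

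Of the 21 other piRNA factors listed, 19 or 20 were measured in each comparison, and they did not follow a single profile. From Stra8 cells to leptotene to zygotene 5 were higher (Ddx4, Mov10l1, Asz1, Mybl1 and Tcfl5) and 2 lower (Fkbp6 and Tex15). Mybl1 was at 41.4 and 33.5 CPM in Stra8 cells, 114 and 136 in leptotene to zygotene, and 130 and 117 in pachytene, and 15.6 and 14.8 in early round spermatids. Its profile correlated with that of Piwil1 at 0.913, rank 78 of the 7269, and with the mean of the members at 0.848, rank 599. For Tcfl5, the other transcription factor of the pathway on the list that was called at this step, the values were 0.693 (rank 892) and 0.453 (rank 3299). Tex15, which acts in transposon silencing and meiotic repair, was 2.48-fold and 4.22-fold lower in leptotene to zygotene and 39.9-fold and 13.4-fold lower again in pachytene.

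The helicase gene Mov10l1, which feeds precursors into piRNA production, was highest earlier than Piwil1 and Tdrd1: it was at 376 and 319 CPM in leptotene to zygotene and 2.46-fold and 2.08-fold lower in pachytene, where Piwil1 and Tdrd1 were higher. Pld6, the mitochondrial nuclease gene of the pathway, was 3.94-fold (2.66 to 6.12) and 3.19-fold (2.15 to 4.95) higher in pachytene, at 144 and 139 CPM. Mael, a granule protein gene, was at 846 and 807 CPM in pachytene and stayed at 711 and 713 in diplotene or dividing cells. Ddx4, the germ cell helicase VASA, was at 618 and 589 CPM in pachytene and 416 and 404 in early round spermatids. From pachytene to later pachytene 5 factors were lower (Ddx4, Mov10l1, Asz1, Fkbp6 and Gpat2) and Gtsf2 was higher.

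The PIWI gene of fetal germ cells, Piwil4, was nearly absent: under mark 1 it had 0 UMIs in every germ cell gate, and under mark 2 it had 6 in undifferentiated spermatogonia, 4 in differentiating spermatogonia, 6 in Stra8 cells and 3 in elongating spermatids. The interval on 0 UMIs in undifferentiated spermatogonia under mark 1 reached 24.1 CPM, so the 22.9 CPM under mark 2 was not distinguishable from it at this depth. That holds for this gate alone, the smallest of the germ cell gates. In Stra8 cells the 0 and 6 UMIs came from gate totals of 1037989 and 955567 UMIs. Whether Piwil4 differs between the marks was not tested. In early round spermatids, Gtsf1, Gtsf1l, Gtsf2 and Tex15 were higher than in diplotene or dividing cells, Gtsf1l by 11.2-fold and 9.39-fold, while Pld6, Mybl1 and Tcfl5 were lower.

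Of 10 other tudor domain genes in the table, Stk31, a tudor protein with a kinase-like domain, shared steps with several members. It was at 195 and 190 CPM in Stra8 cells, 397 and 456 in leptotene to zygotene and 397 and 387 in pachytene, and then 2.21-fold and 2.40-fold lower in later pachytene. In that last comparison Smn1, Setdb1 and Phf20 were lower as well and 0 were higher. From Stra8 cells to leptotene to zygotene Stk31 alone of the 10 was higher, and Setdb1 was lower. Akap1, a mitochondrial scaffold protein with a tudor domain, had the opposite course, at 39.4 and 51.1 CPM in pachytene and 441 and 440 in elongating spermatids.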

How the data were processed

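The deposited table gives UMI counts for every gene in every barcode, and its values are whole, so the authors had not normalised them. Per the submitters' processing notes, Cell Ranger 1.3.1 and Seurat 3.2.2 were used with the mouse build GRCm38, and the filter on the deposited barcodes was not stated. Marks 1 and 2 held 12935 and 15310 barcodes and 158740437 and 168967776 UMIs. No barcode had under 3529 UMIs.

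The 10 genes, the gene lists and the markers were chosen with earlier results of these data known. Gates used the UMIs of marker panels per 10000 UMIs of a barcode, with limits on the panels of other stages, and at least 10000 UMIs from pachytene on. A first rule, a mean z-score over whole panels, was set aside because its pachytene barcodes were shallow. The gates used were then set by hand on subsets of the panels, before the levels of the 10 genes in them were computed. Doublets were not removed, and barcodes that carried markers of a somatic cell were kept out of the germ cell gates.

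UMIs were summed over the barcodes of a gate under each mark (Python 3.11.15, numpy 2.4.6, scipy 1.17.1, pandas 2.3.3). Levels have exact Poisson, ratios conditional binomial and shares Clopper-Pearson intervals of 95%, all of counting error only, since cells are not replicates. A gene was measured with at least 20 UMIs over the stages compared, and a count of 0 was set at a floor of 3 for ratios. Symbols were placed with GENCODE M21 (GRCm38), promoters came from RefSeq (GRCm38.p6). The genes named were the 10 members, 7 fixed others (Piwil4, Ddx4, Mael, Mov10l1, Pld6, Mybl1 and Stk31), at most 4 further list genes of largest ratio per comparison with values, and the genes of most similar profile. Akap1 was named with its level in pachytene after its values were seen. Alternatives covered the fold, the minimum, the scaling, free RNA, each mark alone, gate thresholds and panels, the deepest barcodes, the mean over barcodes and thinning. Added after the data were seen were UMIs per barcode, leaving out shared barcode sequences and a minimum of 5000 UMIs.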

Additional observations from a re-analysis of the deposited data

How the results depend on the processing

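No paired analysis was possible because each genotype has 1 library and no result comes from a test. Of 107 values under 15 other settings, 81 moved by no more than 1.5-fold and 26 moved further. At a call of 2-fold, 2 members were higher in pachytene than in leptotene to zygotene (4 at 1.5-fold) and 1 was lower in early round spermatids (2). With no minimum level, 7 were lower in early round and 6 in elongating spermatids (2 and 3), and 2 changed in the comparisons without a call (0). TMM factors left 1 lower in early round spermatids and called Piwil1 higher in elongating spermatids. Subtracting the free RNA profile, from ungated barcodes under 5000 UMIs and scaled to protamine and transition protein UMIs, left 3 of 5 called higher in leptotene to zygotene. The subtraction took 26.2 to 39.5% of UMIs up to leptotene to zygotene and 12.6 to 16.6% from pachytene to diplotene, and was not run for spermatids. Its profile came from deposited barcodes, none under 3529 UMIs, and not from empty droplets. It can therefore hold RNA of cells, and these percentages do not measure free RNA. Mark 1 alone gave 2 changes in the comparisons without a call, and mark 2 alone gave 3 and put 7 members lower in diplotene or dividing cells (4). Thresholds 1.5 times higher left 2 higher in leptotene to zygotene, 7 lower in diplotene or dividing cells and 0 lower in elongating spermatids, where 4 later round barcodes remained. The odd-numbered panel genes gave 2 higher in pachytene, 1 change in the comparisons without a call, and 4 members highest in pachytene in place of 7 over both marks together, of which 5 were highest there under each mark. The even-numbered gave 2 higher in leptotene to zygotene, 7 lower in diplotene or dividing cells and 2 such changes. In leptotene to zygotene, leaving out the deepest 5% of barcodes gave 2 and the mean over barcodes 3. UMIs per barcode gave 2 higher in leptotene to zygotene, 10 higher in pachytene, 3 lower in later pachytene (7) and 8 lower in diplotene or dividing cells. On that scale counts also follow the depth of the gates. Shares of all genes were not computed under any of the other settings, so the counts of members given here have no background beside them. The median share of pachytene barcodes with a UMI was 48.3% thinned and 97.56% not thinned. Piwil1 and Piwil2 were still called higher in leptotene to zygotene under each setting that moved that count. A call lost there is not by itself a smaller ratio, since the size rule also has minimum levels. Where not shown by the setting itself, the cause was not tested.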
